A study of Bos taurus with 9 samples.

Results

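ACTB (cytoplasmic beta actin, ENSBTAG00000026199), GAPDH (glyceraldehyde 3-phosphate dehydrogenase, ENSBTAG00000014731) and RPLP0 (ribosomal protein lateral stalk subunit P0, ENSBTAG00000017389) are 3 of the 24616 bovine genes with a value in the deposited table. They were chosen because they serve as reference genes for quantitative PCR, and not by their values, although earlier results of these data were known. RNA-Seq was done on whole rectal tissue of 9 beef steers, with 1 library per steer. Super-shedders (SS, n = 5: steers 274, 287, 294, 299 and 310) had E. coli O157 in feces above the level that defines super-shedding when they were identified, and non-shedders (NS, n = 4: steers 108, 152, 165 and 242) were negative. All were feedlot steers on a barley finishing diet, and the labels name no introduced allele and no agent given to either group. Shedding was scored in feces some days before slaughter, so the tissue shows the state after the phenotype was assigned. The biopsies held all layers that the cut reached, and in such tissue fewer cells of a type and less RNA per cell cannot be told apart.

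A reference gene is used to express other genes per amount of cellular RNA, on the premise that its own level is the same in every sample. ACTB encodes a subunit of the actin filaments of the cytoskeleton, which most cells hold in quantity and motile and contractile cells in greater quantity. GAPDH catalyses a step of glycolysis and is used in nearly all cells. RPLP0 is part of the stalk of the large ribosomal subunit, where it binds RPLP1 and RPLP2 and helps to recruit translation factors, and ribosomal proteins are abundant in cells that grow or divide.

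Levels are CPM, the reads on a gene scaled to the total of the library. The reads behind the CPM could be recovered as whole numbers, and their totals ranged from 5412523 in steer 274 to 12278503 in steer 108. The study also gives the library with the fewest reads the lowest share of mapped reads. Markers of rectal mucosa and wall were found in all steers, at amounts that differed widely. The summed level of 12 epithelial genes ranged from 1831 to 21530 CPM in NS and from 186 to 26082 CPM in SS. Those of 12 smooth muscle genes ranged from 3175 to 17615 CPM in NS and from 525 to 59928 CPM in SS, and those of 11 fibroblast and stromal genes from 4142 to 8884 CPM and from 2509 to 28156 CPM. The 8 leukocyte genes summed to between 1137 and 5050 CPM in NS and between 290 and 1047 CPM in SS. Of 5 genes listed for squamous epithelium, 2 had a name and summed to no more than 111 CPM in any steer.

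ACTB, GAPDH and RPLP0 rested on enough reads in every steer to keep counting error small. Reads numbered 13314 to 43083 for ACTB, 1682 to 5063 for GAPDH and 2652 to 14266 for RPLP0, and the relative counting error was at most 2.44%, for GAPDH in steer 274. Levels of different genes are not compared here, since CPM are not divided by gene length.

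ACTB was at 3509, 2667, 3186 and 4406 CPM in NS 108, 152, 165 and 242. In SS 274, 287, 294, 299 and 310 it was at 2460, 2823, 3829, 3486 and 2723 CPM. Steer 242, a NS, had the highest level and steer 274, a SS, the lowest, and the other steers of both groups were mixed between them. Steer 274 also had the fewest recovered reads. Whether the quality of its library bears on its levels of ACTB and RPLP0 was not tested. NS averaged 3442 ± 730 CPM (SD, n = 4), compared with 3064 ± 570 CPM for SS (SD, n = 5).

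GAPDH was at 412, 419, 397 and 362 CPM in NS 108, 152, 165 and 242. It was at 311, 289, 354, 290 and 382 CPM in SS 274, 287, 294, 299 and 310. The 3 highest levels were those of NS, and only steer 310 among the SS had more GAPDH than the lowest NS, so the groups overlapped through steers 242 and 310. NS averaged 398 ± 25.4 CPM (SD, n = 4), compared with 325 ± 41.3 CPM for SS (SD, n = 5).

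RPLP0 was at 1121, 1076, 1123 and 1663 CPM in NS 108, 152, 165 and 242. The values were 490, 1117, 608, 768 and 1157 CPM in SS 274, 287, 294, 299 and 310. Steers 108, 152, 165, 287 and 310, from both groups, lay within a narrow range, steer 242 stood above it, and the SS 274, 294 and 299 lay below it. NS averaged 1246 ± 279 CPM (SD, n = 4), compared with 828 ± 299 CPM for SS (SD, n = 5).

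**Figure D1:**
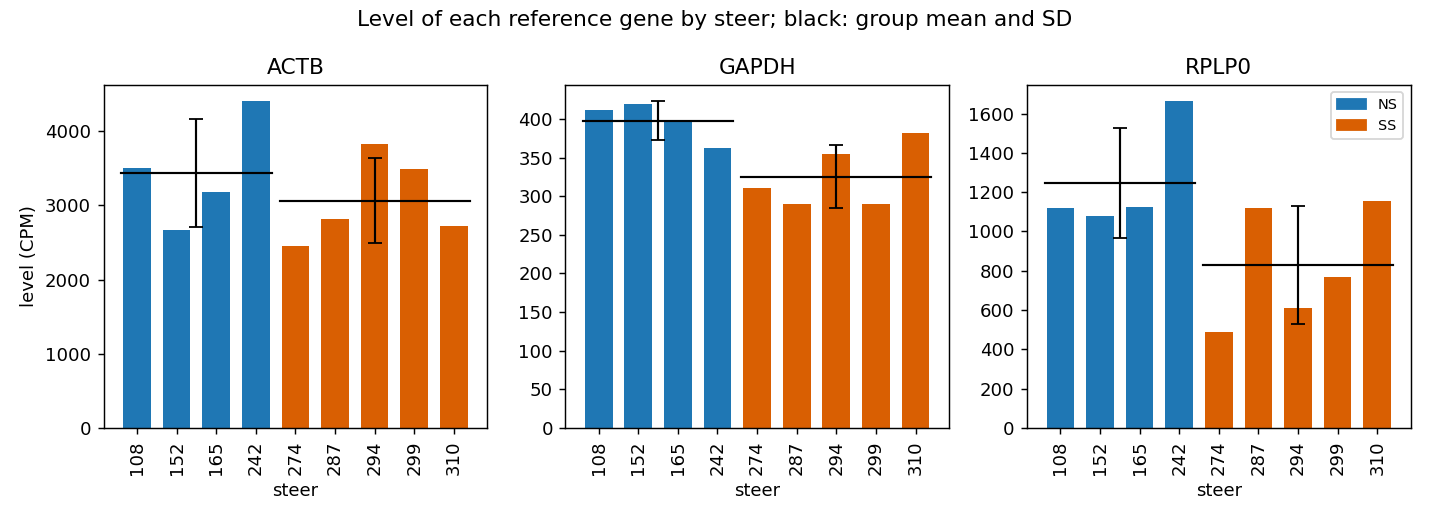
Level of ACTB, GAPDH and RPLP0 in CPM (vertical axis, from 0, with its own scale for each gene) in each steer (horizontal axis; blue NS, orange SS), with the mean of each group as a black line and its SD as a bar. RPLP0 lay between 490 CPM (steer 274) and 1663 CPM (steer 242), while GAPDH lay between 289 and 419 CPM.

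The stability of the 3 genes over the steers was unequal. The highest level was 1.45-fold the lowest for GAPDH, 1.79-fold for ACTB and 3.39-fold for RPLP0. The SD of log2(CPM + 0.5) over the 9 steers was 0.21 for GAPDH, 0.28 for ACTB and 0.54 for RPLP0, against a median of 0.50 over the 15410 genes tested. The coefficients of variation of the CPM were 14.1%, 19.6% and 34.5%. A lower SD than that of GAPDH was found for 6.44% of the genes tested, than that of ACTB for 16.1% and than that of RPLP0 for 55.2%. Low counts add spread to weakly expressed genes, so the genes were also ranked among the 2075 with a mean of at least 100 CPM, whose median SD was 0.40. In that set 13.3% of the genes had a lower SD than GAPDH, 27.8% a lower one than ACTB and 66.3% a lower one than RPLP0. RPLP0 was thus more variable than the median of genes of high level, and GAPDH and ACTB were less variable.

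The spread within each group was also computed. In NS the SD of the log2 level was 0.09 for GAPDH and 0.30 for both ACTB and RPLP0. In SS it was 0.18 for GAPDH, 0.26 for ACTB and 0.54 for RPLP0. The large spread of RPLP0 thus lay among the SS, with a part that came from steer 242 in NS. The difference in spread between the groups was not tested.

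**Figure D2:**
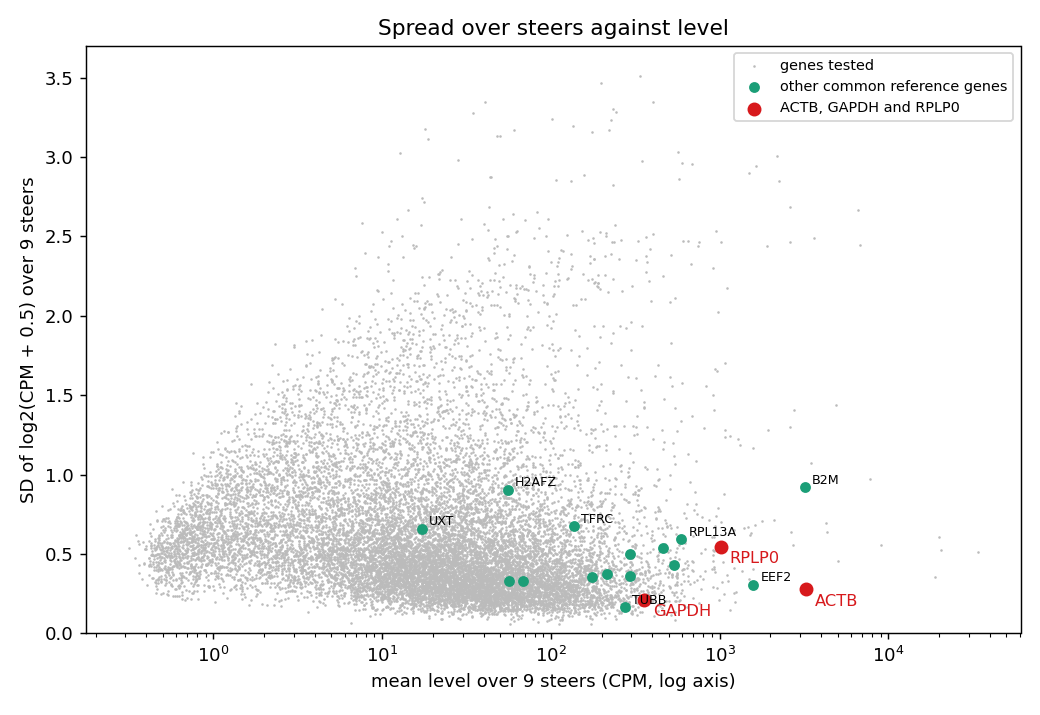
SD of log2(CPM + 0.5) over the 9 steers (vertical axis) against the mean level in CPM (horizontal axis, log scale) for the genes tested (grey), with ACTB, GAPDH and RPLP0 in red and the other common reference genes in green. GAPDH (SD 0.21) and ACTB (SD 0.28) lay in the lower part of the cloud and RPLP0 (SD 0.54) above its middle.

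Between SS and NS, none of the 3 genes passed the test across all genes (limma on log2(CPM + 0.5), where a call needs a Benjamini-Hochberg adjusted p below 0.05 and a log2 difference above 1 in either direction). This rule called 0 of the 15410 genes (0%). An unadjusted limma p below 0.05 was found for 555 genes lower in SS (3.6%) and 55 genes higher in SS (0.357%), and for 0 of the 3 reference genes. The lower count was 329, 269, 351 and 309 without steers 108, 242, 274 and 294 and 849 without steer 287. The higher count was 32, 36 and 328 without steers 152, 299 and 287. An unadjusted limma p below 0.05 was found for GAPDH and RPLP0 without SS 310, and for RPLP0 without SS 287. With edgeR the rule also called 0 genes, with 597 at an unadjusted p below 0.05, and with DESeq2 it called 19, with 897. After median-of-ratios scaling the split at an unadjusted p below 0.05 in limma was 267 genes lower and 192 higher. All SS were below all NS for 323 genes (2.1%) and above all NS for 25 (0.162%), but SS and NS overlapped for ACTB, GAPDH and RPLP0.

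The log2 difference of SS from NS was -0.16 for ACTB (SE 0.27, 95% interval -0.77 to 0.45, adjusted p = 0.942 in limma). It was -0.30 for GAPDH (SE 0.15, interval -0.63 to 0.04, adjusted p = 0.928 in limma). For RPLP0 it was -0.64 (SE 0.30, interval -1.32 to 0.03, adjusted p = 0.928 in limma). These intervals reach to a lower level in SS by 0.63 for GAPDH, 0.77 for ACTB and 1.32 for RPLP0 on the log2 scale, so equal levels were not shown. By the exact permutation test over all divisions of the steers, each gene taken alone and two-sided, p was 0.429 for ACTB, 0.0317 for GAPDH and 0.127 for RPLP0, and the smallest p that test can give is 0.0159.

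Part of these differences was common to the table. The median log2 difference of all genes tested was -0.13 with the deposited scaling and 0.01 after median-of-ratios scaling. Relative to the median of all genes, ACTB differed by -0.03, GAPDH by -0.16 and RPLP0 by -0.51. In 5 fits, which were limma with the deposited, median-of-ratios and TMM scalings, edgeR and DESeq2, this relative difference lay between -0.06 and -0.02 for ACTB, -0.19 and -0.15 for GAPDH, and -0.51 and -0.48 for RPLP0.

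A ratio of 2 genes within a library does not depend on how that library was scaled, and it is what a PCR measurement relative to a reference gene uses. On the log2 scale, the ratio of ACTB to GAPDH was 3.09, 2.67, 3.00 and 3.60 in NS 108, 152, 165 and 242, and 2.98, 3.28, 3.43, 3.58 and 2.83 in SS 274, 287, 294, 299 and 310. The ratio of ACTB to RPLP0 was 1.65, 1.31, 1.50 and 1.41 in these NS and 2.33, 1.34, 2.65, 2.18 and 1.23 in these SS. That of GAPDH to RPLP0 was -1.44, -1.36, -1.50 and -2.20 in NS and -0.66, -1.95, -0.78, -1.40 and -1.60 in SS. Steers 274, 294 and 299 had higher ratios of ACTB to RPLP0 than all other steers, while SS 287 lay within the range of the NS and SS 310 just below it.

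The SD of the log2 ratio over the 9 steers was 0.33 for ACTB to GAPDH, 0.52 for ACTB to RPLP0 and 0.49 for GAPDH to RPLP0. Between its extremes the linear ratio changed 1.91-fold, 2.67-fold and 2.91-fold. The mean ratios of SS and NS differed by 0.13, 0.48 and 0.35 on the log2 scale (exact permutation tests, p = 0.587, 0.222 and 0.302; 0.587, 0.452 and 0.452 after adjustment over the 3 ratios). All 3 ratios overlapped between the groups. For ACTB to GAPDH the difference was -0.0087 without NS 152. For ACTB to RPLP0 it was between 0.30 (without SS 294) and 0.66 (without SS 310), and for GAPDH to RPLP0 between 0.16 (without NS 242) and 0.52 (without SS 287).

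**Figure D3:**
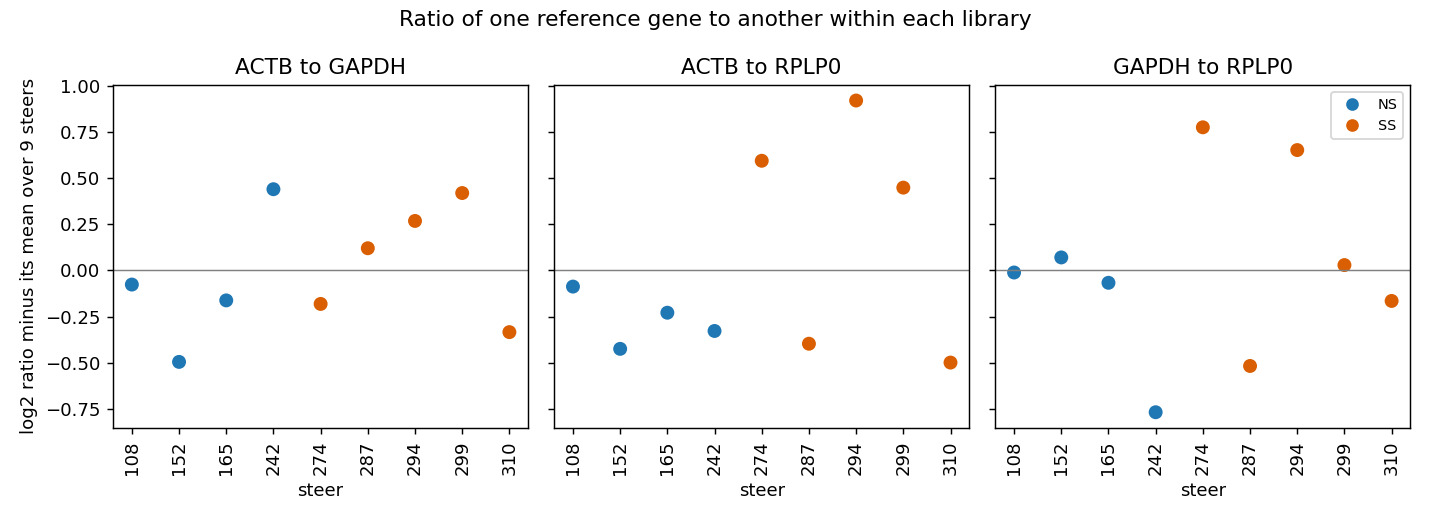
Log2 ratio of one reference gene to another in each library, less the mean of that ratio over the 9 steers (vertical axis), by steer (horizontal axis; blue NS, orange SS). In the middle panel steers 274, 294 and 299 lay above 0 and all others below it.

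The 3 genes did not follow each other closely. Pearson's r over the 9 steers was 0.09 between ACTB and GAPDH (Spearman's rho -0.03), 0.34 between ACTB and RPLP0 (rho 0.33) and 0.43 between GAPDH and RPLP0 (rho 0.38). None of these passed the test (exact permutation p = 0.818, 0.372 and 0.249 for r and 0.948, 0.385 and 0.312 for rho; 0.818, 0.558 and 0.558 for r after adjustment over the 3 pairs). Without steers 242 and 274, the farthest from the median of ACTB, r of ACTB with RPLP0 was -0.73 and that with GAPDH was -0.14. Without steers 287 and 299, the farthest for GAPDH, r of GAPDH with RPLP0 was 0.66.

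The relation to tissue content was then examined with the mean log2(CPM + 0.5) of marker genes for colonic epithelium, smooth muscle, fibroblasts and stroma, and leukocytes. The epithelial mean was 9.61, 9.65, 9.36 and 6.39 in NS 108, 152, 165 and 242 and 6.43, 9.77, 3.24, 8.41 and 9.83 in SS 274, 287, 294, 299 and 310. The smooth muscle mean was 9.08, 9.19, 9.76 and 7.43 in NS and 5.02, 6.74, 11.35, 10.56 and 7.98 in SS. Steers 242, 274 and 294 had the least epithelium, and muscle ranged from the lowest mean in steer 274 to the highest in steer 294.

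The stromal mean was 8.05, 8.74, 8.42 and 8.87 in NS and 10.48, 7.48, 10.24, 8.64 and 8.34 in SS. The leukocyte mean was 7.19, 6.81, 6.95 and 9.02 in NS and 6.39, 6.73, 4.59, 6.58 and 6.49 in SS. Steers 274 and 294 stood apart with the most stroma, and steer 242 with the most leukocytes. The content measures were related among themselves, with r = -0.83 between epithelium and stroma over the 9 steers. In all, 24 relations were computed, for the 3 genes and their 3 ratios with 4 kinds of content. An exact permutation p for r below 0.05 was found for 7 of them, and for 0 after adjustment, where the lowest p was 0.145. Both groups have fewer than 6 steers, so no r was computed within SS or within NS.

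RPLP0 had the largest r of the 3 genes. With leukocytes r was 0.75 (exact permutation p = 0.0222, adjusted p = 0.145) and rho was 0.70 (exact p = 0.0433, adjusted p = 0.465), and r was 0.62 without steers 242 and 294. With stroma r was -0.74 (exact permutation p = 0.0370, adjusted p = 0.148) and rho was -0.48 (exact p = 0.194). This relation rested on steers 274 and 294, the 2 with the most stroma, since without them r was 0.13. With epithelium r was 0.51 (exact permutation p = 0.185) and rho was 0.35 (exact p = 0.359). This r was 0.29 without steer 294, 0.83 without steer 242 and 0.99 over the 7 steers without both. Among these 7, steers 274 and 299 were lowest in epithelium (6.43 and 8.41) and in log2 RPLP0 (8.94 and 9.59). The rest lay within 9.36 to 9.83 for epithelium and 10.07 to 10.18 for RPLP0. The r of 0.99 thus rested on steers 274 and 299, and r without them was not computed. Steer 242 combined little epithelium with the highest RPLP0. With smooth muscle r was -0.0011 (exact permutation p = 0.987) and rho -0.17 (exact p = 0.678), but r was -0.94 without steers 274 and 287, which had the least muscle. When the mean of each group was subtracted, r was -0.76 with stroma and 0.59 with leukocytes (exact permutation within groups, p = 0.0847 and 0.114).

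ACTB was at its highest in steer 242, with the most leukocytes, and in steer 294, with the most muscle. With smooth muscle r was 0.49 (exact permutation p = 0.175, adjusted p = 0.430) and rho 0.42 (exact p = 0.270), and r was 0.05 without steers 274 and 287. With epithelium r was -0.46 (exact permutation p = 0.237) and rho -0.53 (exact p = 0.148), and r was 0.33 without steers 294 and 242. With leukocytes r was 0.28 (exact permutation p = 0.485) and rho 0.37 (exact p = 0.336), and r was 0.62 without steers 242 and 294. With stroma r was 0.01 (exact permutation p = 0.980) and rho 0 (exact p = 1), and r was 0.40 without steers 274 and 294. The relation to epithelium was negative without any single steer (r from -0.71 to -0.29), after median-of-ratios scaling (r = -0.71) and with the group means subtracted (r = -0.60), and positive only when both steers were left out.

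GAPDH had no r above 0.30 in size. Its r was 0.21 with epithelium, 0.30 with smooth muscle, -0.11 with stroma and 0.16 with leukocytes (exact permutation p = 0.585, 0.428, 0.782 and 0.685). Spearman's rho was 0.23, 0.23, -0.07 and 0.47 (exact p = 0.552, 0.552, 0.880 and 0.213). Without the 2 steers farthest from the median of each content measure, r was 0.49, -0.39, 0.35 and 0.59. Leaving out 1 steer gave r from 0.11 to 0.43 with epithelium and 0.10 to 0.62 with smooth muscle. It gave r from -0.51 to 0.15 with stroma and 0.12 to 0.23 with leukocytes.

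**Figure D4:**
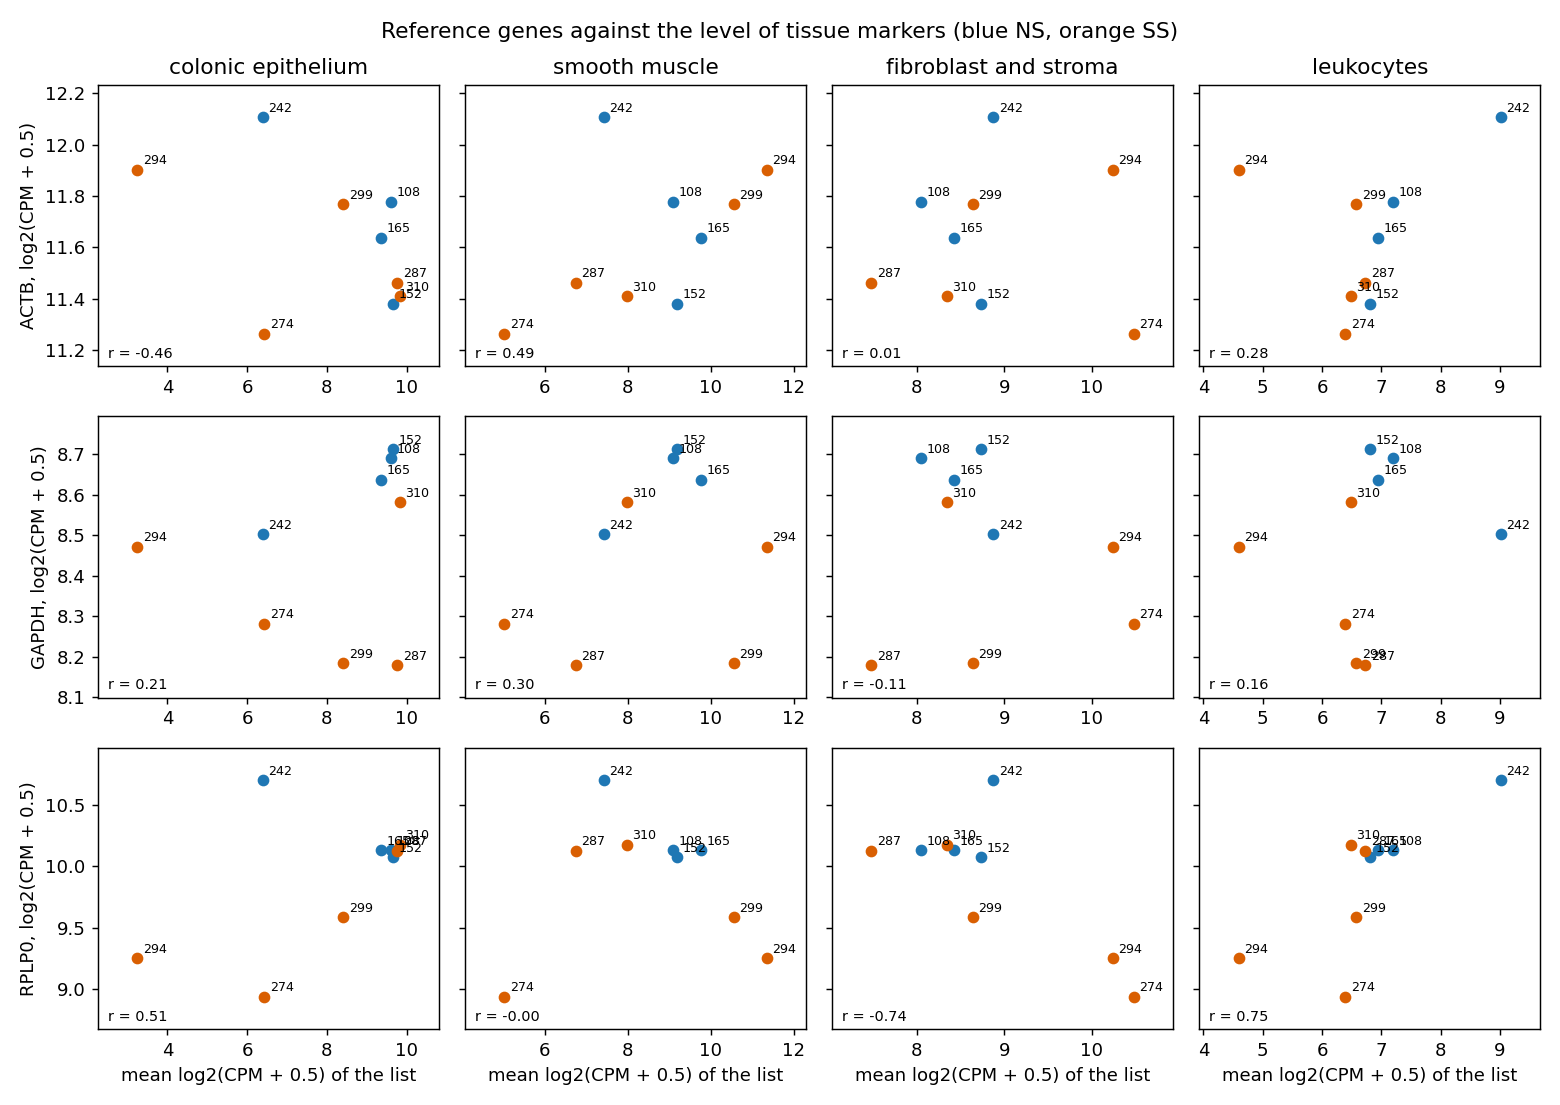
Log2(CPM + 0.5) of ACTB, GAPDH and RPLP0 (rows) against the mean log2(CPM + 0.5) of the marker genes of 4 kinds of content (columns), 1 point per steer, with Pearson's r over the 9 steers. RPLP0 was lowest in steers 274 and 294, which had the most stroma (r = -0.74), and highest in steer 242, which had the most leukocytes (r = 0.75).

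Ratios to RPLP0 had r of up to 0.78 in size. ACTB to RPLP0 had r = -0.78 with epithelium (exact permutation p = 0.0242, adjusted p = 0.145; rho = -0.80, exact p = 0.0138), and r was -0.90 without steers 294 and 242. It had r = 0.78 with stroma (exact permutation p = 0.0329; rho = 0.53, exact p = 0.148), which was 0.19 without steers 274 and 294. GAPDH to RPLP0 had r = 0.78 with stroma (exact permutation p = 0.0194; rho = 0.60, exact p = 0.0968) and -0.76 with leukocytes (exact permutation p = 0.0216; rho = -0.62, exact p = 0.0857), which were 0.11 and -0.37 without the 2 farthest steers. ACTB to GAPDH had r = -0.51 with epithelium (exact permutation p = 0.160) and between 0.07 and 0.22 with the other kinds of content. ACTB to RPLP0 with leukocytes had r = -0.64 (exact permutation p = 0.0495, adjusted p = 0.170; rho = -0.38, exact p = 0.312), which was -0.31 without steer 294. With the group means subtracted, r of ACTB to RPLP0 with epithelium was -0.77 (exact permutation within groups, p = 0.0319). With stroma and leukocytes it was then 0.77 and -0.49 (exact permutation within groups, p = 0.117 and 0.119). For GAPDH to RPLP0 these values were 0.76 and -0.73 (exact permutation within groups, p = 0.0771 and 0.0618).

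Steer 242 decided whether relations passed the adjusted threshold. Without this NS, 4 of the 24 did so over the 8 steers left. They were ACTB with smooth muscle (r = 0.84, exact permutation p = 0.00739, adjusted p = 0.0443), RPLP0 with stroma (r = -0.91, exact permutation p = 0.00729, adjusted p = 0.0443), ACTB to RPLP0 with epithelium (r = -0.91, exact permutation p = 0.000794, adjusted p = 0.0190) and GAPDH to RPLP0 with stroma (r = 0.98, exact permutation p = 0.00164, adjusted p = 0.0196). With all 9 steers these r were 0.49, -0.74, -0.78 and 0.78. Each of the 9 steers was left out in turn, and this omission is singled out for its result. Its p-values were not adjusted over the omissions, so these 4 relations are not established. The part of tissue content in the differences between SS and NS was not tested.

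The relatives of ACTB had larger SDs of the log2 level over the 9 steers than ACTB. ACTG1, the other cytoplasmic actin, averaged 1707 ± 245 CPM (SD, n = 4) among NS, compared with 1304 ± 332 CPM (SD, n = 5) among SS, with an SD of 0.34 on the log2 scale over the 9 steers. ACTA2, the actin of vascular smooth muscle, had its minimum in steer 274, 81.5 CPM, and its maximum in steer 294, 1587 CPM. ACTG2, the actin of enteric smooth muscle, had 6.84 and 5410 CPM there, also its minimum and maximum. Over the steers r with ACTB was 0.33 for ACTG1, 0.37 for ACTA2 and 0.52 for ACTG2. The coding sequences of actins are much alike, and the treatment of reads that map to several genes was not stated, so their levels are uncertain to that extent.

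Of 39 genes whose products bind, cap, branch or move actin filaments, 0 passed the test across all genes, 27 had a negative and 12 a positive difference, and the median difference was -0.32, against -0.13 over all genes tested. All SS were below all NS for 6 of them, against 2.1% of all genes. These were ACTR2, ACTR3, ARPC2, ARPC3 and ARPC5, subunits of the Arp2/3 complex that branches filaments, and EZR (ezrin), which links filaments to the cell membrane, and they were named after their values were seen. ARPC1A, ARPC1B and ARPC4, the other listed subunits of this complex, overlapped between the groups, with differences of -0.15, -0.70 and -0.71 (exact permutation p = 0.635, 0.238 and 0.0952). After median-of-ratios scaling the median difference of the 39 was -0.17, the groups overlapped for all of them, and the count below all NS was 0.941% of all genes. The SD over the steers was lowest for ACTN4 (0.24) and CAPZB (0.26) and highest for FLNA (1.44) and TPM1 (1.65). ACTN4 and CAPZB encode a crosslinker and a capping protein, and FLNA and TPM1 encode filamin and tropomyosin, which are abundant in muscle and were highest in steer 294. The median r of the 39 genes with ACTB was 0.18, from -0.76 for ARPC1A to 0.77 for TLN1 (talin).

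Among the genes of glycolysis, 11 of 16 listed had a name, and none passed the test. Their median difference was -0.37, with 8 negative and 3 positive values, against a median of -0.13 over all genes tested, and the groups overlapped for all 11. After median-of-ratios scaling the median was -0.22, with 7 negative and 4 positive values. TPI1 (triosephosphate isomerase), the enzyme next to GAPDH in the pathway, averaged 189 ± 34.9 CPM (SD, n = 4) among NS, compared with 142 ± 19.5 CPM (SD, n = 5) among SS, with r = 0.86 with GAPDH over the steers. PKM (pyruvate kinase) had r = 0.76 and PGK1 (phosphoglycerate kinase) r = 0.40. The median r of the 11 genes with GAPDH was 0.40, from -0.18 for ALDOA to 0.86 for TPI1, and 8 were above 0. ALDOA and LDHB, an aldolase and a lactate dehydrogenase subunit, were highest in steer 274 at 894 and 366 CPM, and LDHA was lowest in steer 294 at 29.8 CPM. The SD over the steers was 0.28 for GPI, 0.30 for TPI1 and PKM, 0.32 for PGAM1, 0.36 for PGK1, and 0.40 for HK1 and ENO1, so GAPDH varied less than each of the 11.

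RPLP0 moved with the other ribosomal proteins. Of 70 genes of cytosolic ribosomal proteins, 69 were tested, and the median of their r with RPLP0 was 0.89, from 0.20 for RPL23A to 0.98 for RPS15. The same median was 0.52 for ACTB and 0.36 for GAPDH. With the mean log2 level of the 69 genes r of RPLP0 was 0.96, and its log2 ratio to that mean had an SD of 0.20 over the steers, against 0.54 for RPLP0 itself. RPLP1, a partner in the ribosomal stalk, averaged 488 ± 95.9 CPM (SD, n = 4) among NS, compared with 362 ± 91.6 CPM (SD, n = 5) among SS, with r = 0.81 with RPLP0. RPLP2, the other partner, was at 234 ± 78.9 CPM and 160 ± 45.8 CPM (SD, n = 4 and 5), with r = 0.89. Like RPLP0, RPLP1 and RPLP2 were highest in steer 242 and lowest in steer 274. These correlations across genes describe the same 9 libraries and share their scaling. Single genes of other kinds had similar r with RPLP0, such as 0.98 for RALY and RAD21 and 0.93 for ARPC2. The median r of RPLP0 was 0.47 with 39 actin filament genes and 0.46 with 11 glycolysis genes, and it was not computed over all genes.

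None of the 69 passed the test across all genes. All 69 had a negative difference, with a median of -0.50, and all SS were below all NS for 16 of them, against 2.1% of all genes. After median-of-ratios scaling all 69 were still negative, with a median of -0.35. The groups were then apart in this direction for 1, RPL29, against 0.941% of all genes. Leukocyte markers also had negative differences, and none of them passed the test across all genes. All 8 of the general leukocyte list had a negative difference, the mean of the list differed by -1.34 on the log2 scale, and its summed level did not overlap between the groups. After median-of-ratios scaling this sum did overlap, with a lowest NS of 1151 and a highest SS of 1182 on the scaled CPM. All SS were then below all NS for 1 of the 8 genes instead of 4, against 0.941% of all genes instead of 2.1%. The 4 B cell markers, all negative, differed by -2.74 on average and summed to between 55.9 and 488 CPM in NS and between 3.87 and 36.0 CPM in SS. The 5 T cell markers, also all negative, differed by -1.72 and summed to between 54.4 and 590 CPM in NS and between 9.48 and 59.4 CPM in SS. The 4 macrophage markers differed by -0.13 on average, and 3 of them had a positive difference after median-of-ratios scaling. The 2 plasma cell markers differed by -0.86, and the groups overlapped. No marker of these lists was at 0 in any steer, and their part in the level of the ribosomal genes was not tested. RPL21 had the lowest SD (0.23) and RPL26 the second lowest (0.25), and RPS27 (0.74) and RPS29 (0.81) had the highest. RPS15A was listed at 0 in at least 1 steer, did not exceed 0.563 CPM and was not tested. The ribosomal genes have many near-identical copies in the genome, so part of their reads may be split between loci.

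Each gene was also compared with 2047 other named genes for likeness over the 9 steers, by r of log2(CPM + 0.5). For ACTB the highest r was 0.93 with U2SURP, 0.90 with SLC4A7 and 0.87 with FAM208A. For GAPDH it was 0.91 with PARK7, 0.87 with AP2M1 and 0.86 with TPI1. For RPLP0 it was 0.98 with RALY, RPS15 and RAD21. These are the highest of many values, and the names cover mainly genes of high level.

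Common reference genes gave a second view of stability. Of 22 listed, 16 had a name and 15 of these were tested, which with ACTB, GAPDH and RPLP0 makes 18. By the SD of the log2 level, TUBB (beta tubulin, SD 0.16) was the most stable of the 18, GAPDH was at rank 2, ACTB at 3 and RPLP0 at 13. The SD of TUBB was 0.09 without steer 242. B2M (beta-2-microglobulin) and H2AFZ (a histone H2A variant) had the largest SD, 0.92 and 0.91. A second measure, chosen after seeing the data, was the mean SD of the log2 ratios of a gene to the other 17, and does not depend on library scaling. It was 0.44 for RPLP0, 0.47 for GAPDH and 0.53 for ACTB, at ranks 4, 7 and 12. EIF3K, a subunit of a translation initiation factor, was at rank 1 with 0.40, followed by PPIB (cyclophilin B, 0.43) and RPS9 (0.44), and B2M was at rank 18 with 0.80. Steer 294 carried both values of B2M, since without this SS its SD was 0.41 and its pairwise value 0.44, at rank 10.

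The order of the 3 genes thus depended on the measure. By PCR, the study found beta actin to have the steadiest cycle values of its reference genes, which is another measure than both used here. RPS9, RPS18 and RPL13A, ribosomal proteins like RPLP0, are among the 18, and the pairwise measure includes the ratios to them. Without each steer in turn, the rank was 2 to 4 for RPLP0, 6 to 9 for GAPDH and 9 to 13 for ACTB. All 15 other reference genes had a negative difference of SS from NS, with a median of -0.50, and H2AFZ had -0.83. After median-of-ratios scaling 13 were negative and 2 positive, and the median was -0.35. PGK1, YWHAZ, SDHA, EEF2, TFRC and UXT had SDs of 0.36, 0.33, 0.37, 0.30, 0.67 and 0.66.

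The choice of reference changed the size of differences between the groups. In the study, immune genes were expressed relative to a reference gene, and 9 of these targets are used here. Because the study picked them for their difference between these steers, their direction, separation and p-values are no independent evidence. Relative to the library total, the median log2 difference of the 9 from NS to SS was -2.59. It was -2.43 relative to ACTB, -2.30 relative to GAPDH and -1.95 relative to RPLP0, and each shift equals the difference of the reference gene itself. CXCL13, a chemokine that draws B cells into follicles, had the largest difference, -4.51 relative to the library total and -3.86 relative to RPLP0. SH2D1A, an adaptor of T and NK cells, had the smallest, -1.61 and -0.96.

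The separation of SS from NS also varied with the reference. All SS lay below all NS for 6 of the 9 targets relative to the library total, for 7 relative to ACTB, for 5 relative to GAPDH and for 2 relative to RPLP0. Over all genes tested, the shares that were apart in this direction were 2.1%, 0.61%, 0.117% and 0.117%. The 2 targets apart relative to RPLP0 were CCR7, a chemokine receptor of lymphocytes and dendritic cells, and CXCL13. The exact permutation p of single targets was below 0.05 for 8, 9, 7 and 6 of the 9. The share of all genes tested with such a p was not computed. With 1 steer left out, only targets whose groups are fully apart can reach such a p, and the counts were 6 to 8, 7 to 9, 5 to 7 and 2 to 5. The count relative to RPLP0 was then 2 without steer 108, 165, 242, 287 or 310 and 3 without steer 294 or 299. For SH2D1A it was 0.0317 relative to the library total, 0.0159 relative to ACTB, 0.159 relative to GAPDH and 0.206 relative to RPLP0 (exact permutation tests, n = 4 and 5). CD22, a receptor of B cells, overlapped between the groups with every reference, and so did POU2AF1, a transcriptional coactivator of B cells. CCL21, LTB, MS4A1, IL2RA and SH2D1A were apart relative to ACTB and overlapped relative to RPLP0.

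**Figure D5:**
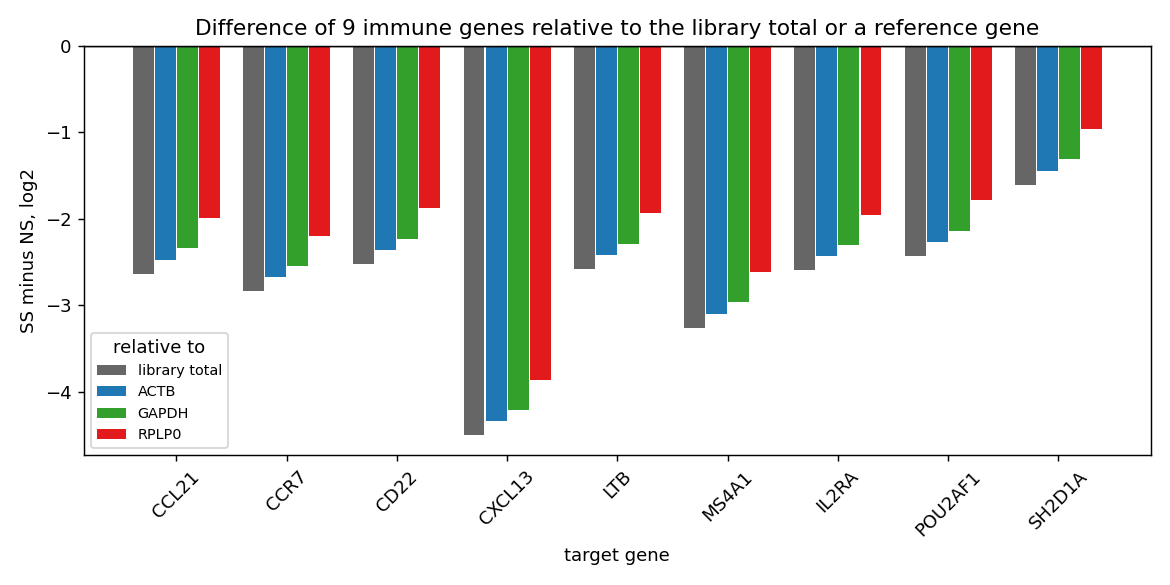
Log2 difference of SS from NS (vertical axis) for 9 immune genes (horizontal axis), relative to the library total (grey), ACTB (blue), GAPDH (green) and RPLP0 (red). In each gene the bar relative to RPLP0 is the shortest, and for SH2D1A it is -0.96.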

How the data were processed

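The authors deposited CPM per Ensembl gene of whole rectal tissue, 1 library per steer. Per the labels, rRNA was removed and the libraries kept the strand. The authors mapped the reads to the genome build UMD3.1 with TopHat2. The submitters' processing notes also name HTSeq and edgeR, with roles, versions and settings not given in the sources used here. For each library 100% of the deposited CPM were whole multiples of 1 read, within 0.01 reads, so reads were recovered. A count of 0 would allow up to 3 reads, or 0.244 to 0.554 CPM. This floor and the counting errors cover counting error only. No sequencing batch is given. Groups were taken from the labels, and p-values measure the spread between these steers.

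The main test was limma 3.58.1 (eBayes with trend, R 4.3.3) on log2(CPM + 0.5), adjusted by Benjamini-Hochberg over all genes that reached 0.5 CPM in 4 or more steers. On this scale the changes of low genes are understated. edgeR 4.0.16 (quasi-likelihood), DESeq2 1.42.0, median-of-ratios and TMM scaling, pseudocounts of 0.1 and 1, no filter and the omission of each steer were alternatives. Exact permutation tests were two-sided, with the smaller one-sided share doubled (Python 3.11.15, numpy 2.4.6, pandas 2.3.3, scipy 1.17.1; figures with matplotlib 3.10.9). The scripts were tested on simulated data.

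The members and lists were chosen with earlier results of these data known. Names of 2050 genes came from supplementary tables of the study that hold mainly its most abundant genes, and the ribosomal list was drawn from these. Among the listed genes without a name were VIL1, CDX2, MUC2, COL3A1, KRT5, KRT14, TP63, HK2, PFKL, PFKM, PFKP, ALDOC, HPRT1, PPIA, TBP, GUSB and EEF1A1. Named are the 3 members, their relatives, glycolysis, reference and target genes, the 2 lowest and 2 highest SDs of the actin and ribosomal lists, and the 3 genes most like each member. Some listed genes and one target gene of the study are not reported here. 18S rRNA, gene coordinates and sequences were not analysed here.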

Additional observations from a re-analysis of the deposited data

Results flagged for a closer look

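Within each group, the highest and the lowest steer were compared with the others for 3 genes, 3 ratios and 4 kinds of content, which gave 20 groups of 4 or 5 steers, and 4 steers stood far from their group. By chance about 1 in 20 groups does so. RPLP0 in steer 242 (1663 CPM) was far above the other NS, with a gap of 0.92 of the whole range. The log2 ratio of GAPDH to RPLP0 in the same steer (-2.20) was far below the other NS, with a gap of 0.84. The mean log2 level of colonic epithelium in steer 242 (6.39) was also far below that of the other NS, with a gap of 0.91. Among the SS, the mean log2 level of leukocytes in steer 294 (4.59) was far below the others, with a gap of 0.84. Thus 3 of the 4 values were from steer 242.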

How the results depend on the processing

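The differences of ACTB, GAPDH and RPLP0 between SS and NS were negative and not called in all 48 alternative values, from -0.28 to -0.0024 for ACTB, -0.36 to -0.14 for GAPDH and -0.78 to -0.43 for RPLP0. Their SDs over the steers ranged from 0.23 to 0.30, 0.19 to 0.22 and 0.43 (without SS 274) to 0.58. Genes called numbered 0 in limma, 19 with DESeq2 and 0 to 1 without 1 steer (1 without NS 108 or SS 299). Without 1 steer, the difference of ACTB to GAPDH was between -0.0087 and 0.30. Of 294 alternative values of the 24 relations, 25 changed direction and 4 newly passed, those without steer 242. With median-of-ratios scaling r was -0.076 for ACTB with leukocytes, 0.14 for GAPDH with stroma and -0.30 for GAPDH with leukocytes. With group means subtracted, a step chosen after seeing the data, GAPDH had r = -0.0046 with epithelium, 0.15 with stroma and -0.58 with leukocytes. With summed CPM, RPLP0 had r = 0.0070 with smooth muscle. Without 1 steer, r with stroma ranged from -0.25 to 0.50 for ACTB, -0.51 to 0.15 for GAPDH, -0.91 to -0.55 for RPLP0, -0.12 to 0.28 for ACTB to GAPDH and 0.64 to 0.98 for GAPDH to RPLP0. With smooth muscle it ranged from 0.24 to 0.84 for ACTB, -0.81 to 0.31 for RPLP0, -0.14 to 0.82 for ACTB to RPLP0 and -0.18 to 0.88 for GAPDH to RPLP0. With leukocytes it ranged from -0.39 to 0.83 for ACTB and -0.42 to 0.53 for ACTB to GAPDH, and with epithelium from -0.91 to -0.55 for ACTB to RPLP0. The cause was not tested. The changes of direction fell on 10 of the 24 relations, with 6 in RPLP0 with smooth muscle, 5 in ACTB with stroma and 4 in GAPDH with stroma. Without the 2 steers farthest from the median of the content measure, 3 others changed direction as well, which were ACTB with epithelium, GAPDH with smooth muscle and RPLP0 with stroma. The directions of these 13 are uncertain at n = 9. The study describes the NS as pen-mates of the SS, but the labels give no pen and the steers of SS and NS share no number. No paired analysis was therefore possible.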
